A study of Mus musculus with 6 samples.

Results

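The genes described here are the 10 that encode the m6A writers and erasers: Mettl3, Mettl14, Wtap, Zc3h13, Cbll1, Rbm15, Rbm15b, Mettl16, Fto and Alkbh5. They were chosen by name from the known membership of this machinery, and all 10 were found once each among the 14490 genes of the expression table. The question was whether the other 9 genes, called the partners of Mettl3 below, differed when Mettl3 was deleted in NK cells. mRNA-seq was performed on NK cells purified from spleens of C57BL/6 mice, with 3 WT samples and 3 cKO samples. WT mice were Mettl3fl/fl and carried no Cre, and cKO mice were Ncr1Cre/+-Mettl3fl/fl, so both genotypes shared the floxed Mettl3 alleles. Cre was thus heterozygous in cKO, with the other Ncr1 allele left without it. Cre was expressed from the locus of Ncr1, the gene of the NK receptor NKp46, and the deletion is therefore limited to cells that express or have expressed Ncr1. No group carried Cre without the floxed alleles, so effects of Mettl3 loss and of the Cre allele cannot be told apart. The labels give no age for the mice, the study's methods give a single range of young age for all its mice, and the labels do not say that each sample came from a separate animal, so p-values measure the spread between these samples, which may be technical.

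N6-methyladenosine (m6A) is a methyl mark on adenosines of mRNA that influences splicing, export, translation and decay. METTL3 is the catalytic subunit and METTL14 is its RNA-binding partner, and the pair forms a stable heterodimer. WTAP, VIRMA, ZC3H13, CBLL1 (also called HAKAI), RBM15 and RBM15B make up the regulatory part, which holds the heterodimer in the nucleus and brings it to its targets. METTL16 works apart from this complex, and FTO and ALKBH5 are demethylases that remove methyl groups from adenosine, which is why they are called erasers. In NK cells METTL3 has been studied for its role in homeostasis and in responses to IL-15.

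The best-known mRNA target of METTL16 is Mat2a, which encodes the enzyme that makes S-adenosylmethionine, the methyl donor of every m6A writer. METTL16 methylates an adenosine within hairpins of the Mat2a 3′ UTR, and the sites are shown because they tie 1 of the members to a transcript that was measured in the same samples. The letters TACAGAGAA and TACAGAAAA were searched on the sense strand of the Mat2a-202 transcript (GENCODE, GRCm38, chromosome 6, minus strand), and 6 matches were found, all in the 3′ UTR. The matched letters are in capitals, each with 10 flanking bases on either side, and the sites follow the transcript from 5′ to 3′.
Mat2a site 1: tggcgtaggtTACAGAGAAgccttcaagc
Mat2a site 2: ccttgtgataTACAGAGAAgtcacagggc
Mat2a site 3: ctggtgtagcTACAGAGAAaccagcttcc
Mat2a site 4: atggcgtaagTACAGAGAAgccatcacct
Mat2a site 5: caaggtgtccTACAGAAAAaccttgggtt
Mat2a site 6: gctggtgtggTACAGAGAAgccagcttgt
The match of site 1 lies at chr6:72434245-72434253 and that of site 6 at chr6:72432948-72432956. Site 5 holds TACAGAAAA and the other sites hold TACAGAGAA. Of 21901 genes with a protein-coding longest transcript, 7.47% held at least 1 such match, and Mat2a alone held as many as 6. A match of letters is a description of the transcript and not a measurement of methylation.

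Values below are normalized counts, which are read counts per gene divided by a size factor for each sample, unless a value per kilobase is named. A gene is said to have risen or fallen where limma, fitted on log2(normalized count + 1) over all 14490 genes, gave a Benjamini-Hochberg adjusted p under 0.05, and all fold changes are on that log2 scale for cKO against WT. The reads on listed genes ranged from 55965515 to 71464042 per sample, and the members had between 292 and 18127 reads each. Among all genes, 5307 passed the test, of which 48.5% were higher in cKO, and with samples scaled to equal totals 5503 passed, of which 63.4% were higher. The NK markers Ncr1, Klrb1c, Klrk1, Eomes, Tbx21, Itga2, Nkg7, Prf1 and Gzma were all listed with at least 13079 normalized counts in every sample, and 6 of these 9 fell in cKO while Tbx21 rose, or 5 and 2 under scaling to equal totals. Of 7 B-cell markers 6 rose in cKO, and their summed level was 8710 to 9513 in WT and 10068 to 10729 in cKO, with none of them at 0. Without WT sample 1 or without cKO sample 1, 4 of them rose. T-cell markers summed to 2488 to 2671 in WT and 2190 to 2392 in cKO, with 1 of 6 lower. That marker was Cd3g, with a mean of 802 in WT and 478 in cKO. Trac (mean 767 in WT and 863 in cKO) and Cd8a (45.2 and 71.3) lay above WT in every cKO sample but did not pass the test. Cd3d, Cd3e and Cd4 had overlapping ranges. Myeloid markers summed to 7027 to 7623 in WT and 6974 to 7786 in cKO, with 3 of 5 higher and 1 lower, and without WT sample 2 only 1 was higher. The 5 erythroid markers listed summed to 811.4 to 869.9 in WT and 684.0 to 832.4 in cKO, and none passed the test. Without WT sample 1, cKO sample 1 or cKO sample 2, 1 erythroid marker was lower, and 1 T-cell marker was higher without WT sample 3 and 2 under scaling to equal totals. The part of these markers in the differences described below was not tested. In bulk samples, fewer cells of a type and less RNA per cell cannot be told apart.

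Deletion of Mettl3 was accompanied by lower Mettl3 mRNA and by higher mRNA of 5 of its 9 partners, and no partner fell. The partners as named here include Mettl16, Fto and Alkbh5, which do not encode subunits of the complex. Of the 6 partners within the writer complex 4 rose. The rises were found in Rbm15b, Mettl16, Cbll1, Mettl14 and Wtap, and they ranged from 13.4% to 37.3% of the WT mean. Among all genes the background of such calls was 17.8% for higher and 18.8% for lower expression in cKO. Values of the 3 cKO samples lay all above the 3 WT values for 6 partners, where 22.7% of all genes did so, and all below them for Mettl3, where 23.0% of all genes did so. The study's rule for differential expression was P under 0.05 with a change of more than 2-fold, and the study applied it to DESeq2 results. With the unadjusted limma p and the limma fold change used here, only Mettl3 qualified of the 10 members, and 1.75% of all genes did. The median log2 fold change of the 9 partners was 0.18, beside 0.0014 over all genes.

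**Figure D1:**
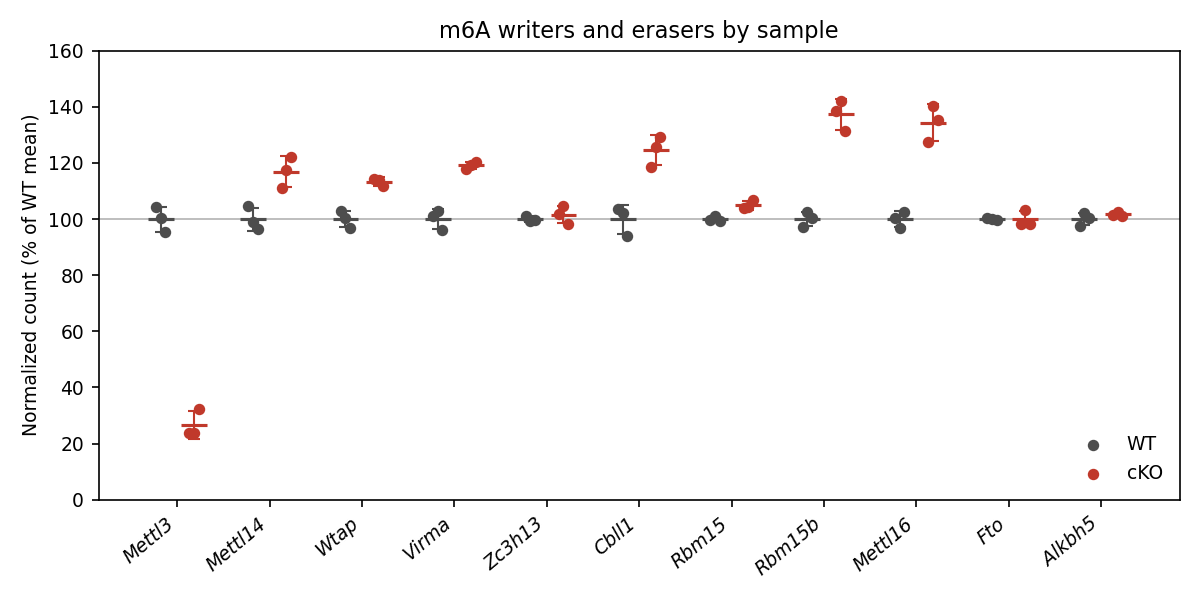
Normalized count of each gene as a percent of its WT mean (y axis) for the 10 members and Virma (x axis), with 1 point per sample, WT in grey and cKO in red; horizontal lines are means and bars are SD (n = 3). Mettl3 in the cKO samples sits between 23.7% and 32.4% of the WT mean, Rbm15b between 131% and 142%, and the cKO points of Zc3h13, Fto and Alkbh5 lie among or next to the WT points.

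Mettl3 was described first because it checks the labels. It lies at chr14:52294841-52305128 of GRCm38 on the minus strand, with exons that cover 5076 bases. WT samples 1 to 3 had 1303, 1258 and 1192 normalized counts, whereas cKO samples 1 to 3 had 297, 299 and 405. All cKO samples were far below all WT samples, and cKO sample 3 was the highest of its group. The mean fell from 1251 ± 56.0 to 334 ± 61.9 (SD, n = 3), a log2 fold change of −1.92 (SE 0.0986), with a limma adjusted p of 2.32e-14. This was the lowest log2 fold change of all genes in the table. The 3 cKO samples kept 23.7%, 23.9% and 32.4% of the WT mean, and the spread relative to the mean was 18.5% in cKO and 4.48% in WT. Whether the remaining reads come from cells that kept the gene, or from transcripts that lack only the floxed part, cannot be told apart in a count per gene. The exons of Mettl3 share 933 bases, 18.4% of their length, with Tox4 on the opposite strand, and library preparation was not stated to keep strand. Counted over protein-coding transcripts only, the shared stretch is 366 bases. Tox4 itself had 8595 ± 423 normalized counts in WT and 8097 ± 180 in cKO (SD, n = 3), with overlapping ranges and an adjusted p of 0.0766 by limma.

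Mettl14, which encodes the partner that holds RNA for METTL3, was modestly higher in cKO. Normalized counts were 1174, 1111 and 1084 for WT, against 1246, 1320 and 1373 for cKO. The groups did not overlap, although the lowest cKO value and the highest WT value were close. The log2 fold change was 0.23 (SE 0.0623, 95% interval 0.097 to 0.353) and the limma adjusted p was 0.00544. Because Mettl3 fell and Mettl14 rose, the balance of the catalytic pair within a sample was turned over. Per kilobase of exon, the ratio of Mettl14 to Mettl3 was 0.616, 0.605 and 0.623 for WT, against 2.87, 3.02 and 2.32 for cKO. The 2 ranges lay far apart, and the ratio differed by 2.15 on the log2 scale. The exact permutation p was 0.1, the smallest that 3 against 3 samples can give. As the deleted gene is the denominator, most of this difference is the fall of Mettl3 itself (log2 fold change −1.92). The test therefore says nothing further about Mettl14. When the longest transcript was used as the length, the mean ratio was 0.269 ± 0.0040 in WT and 1.20 ± 0.163 in cKO (SD, n = 3), since annotated exons of Mettl3 cover 5076 bases and its longest transcript 2159. The summed level of the pair per kilobase of exon was 381 to 415 in WT and 227 to 265 in cKO.

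Of the 5 regulatory subunits among the members 3 rose and none fell, where 17.8% of all genes rose and 18.8% fell. Rbm15b, whose protein binds RNA and recruits the complex to methylation sites, had 2002, 2109 and 2070 normalized counts in WT and 2853, 2928 and 2708 in cKO. Every cKO sample was well above every WT sample. The mean increased from 2060 ± 54.3 to 2830 ± 112 (SD, n = 3), a log2 fold change of 0.46 (SE 0.0478), with a limma adjusted p of 2.13e-08. A log2 fold change at least this high was found for 8.11% of all genes. Its single annotated exon block at chr9:106880918-106887428 shares 75 bases with Dcaf1 on the opposite strand, which is not in the table, and 14 bases with Manf.

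Rbm15, the close relative of Rbm15b with the same role, was far more abundant and differed much less. It had 13477, 13700 and 13419 normalized counts in WT and 14065, 14096 and 14454 in cKO. The cKO values were all above the WT values but by a small margin, with a log2 fold change of 0.07 (SE 0.0311) and a limma adjusted p of 0.081, which did not pass the threshold. Under scaling to equal totals its limma adjusted p was 0.00281 and under a correction for GC content and length 0.0267, so that 6 partners passed under either. Over all alternatives the adjusted p of Rbm15 ran from 0.00281 to 0.241. Scaling to equal totals also raised the number of all genes higher in cKO from 2576 to 3487, while the correction gave 2575. Per kilobase of exon, the ratio of Rbm15b to Rbm15 was 0.169, 0.176 and 0.176 in WT and 0.231, 0.237 and 0.214 in cKO. All cKO ratios were higher, a difference of 0.39 on the log2 scale with an exact permutation p of 0.1, the smallest possible here, and this ratio does not depend on the scaling of the samples.

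Cbll1, which encodes the ubiquitin ligase HAKAI, had 1403, 1384 and 1274 normalized counts in WT and 1605, 1702 and 1748 in cKO. The groups did not overlap, and the log2 fold change was 0.32 (SE 0.0582) with a limma adjusted p of 9.34e-05. Cbll1 shares 704 exon bases, 17.6% of its exon length, with the antisense gene Gm29542, which is not in the table. Reads from that stretch could not be assigned to either gene without strand.

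Wtap, which localizes the METTL3-METTL14 heterodimer to nuclear speckles, had 6072, 5920 and 5724 normalized counts in WT and 6754, 6736 and 6592 in cKO. The rise was small but clear of the spread, with a log2 fold change of 0.18 (SE 0.0364) and a limma adjusted p of 0.000256. Of the 50-base words in its longest transcript, 9.02% also occur in Gm14292, so that part of its count is uncertain.

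Zc3h13, whose protein anchors the complex in the nucleus, had 7442, 7306 and 7318 normalized counts in WT and 7476, 7707 and 7239 in cKO. The groups overlapped, with cKO sample 3 below every WT sample. The log2 fold change was 0.02 (SE 0.0353), the 95% interval of the change ran from −3.41% to 6.83%, and the limma adjusted p was 0.663.

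Virma, the largest subunit of the complex and a scaffold for the others, is not among the 10 genes and was measured for comparison. It had 6809, 6929 and 6481 normalized counts in WT and 7939, 8041 and 8104 in cKO. The groups did not overlap, with a log2 fold change of 0.25 (SE 0.0357) and a limma adjusted p of 2.73e-06. With Virma included, the regulatory subunits summed to 5432 to 5596 normalized counts per kilobase of exon in WT and 6117 to 6205 in cKO. This sum was higher in every cKO sample. The sum of the catalytic pair was lower in every one, but it includes the deleted Mettl3.

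**Figure D2:**
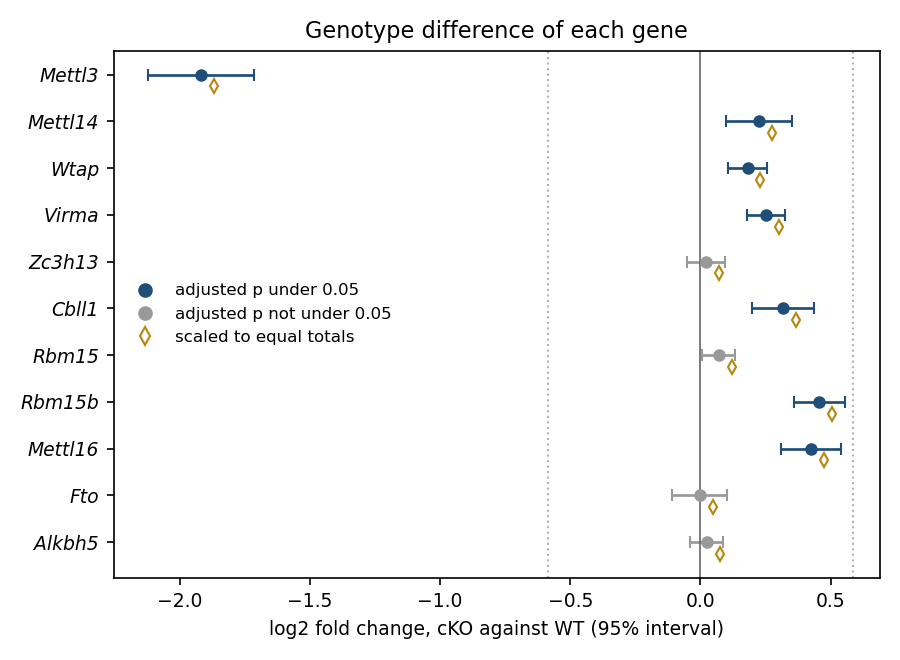
Log2 fold change of cKO against WT (x axis) for each gene (y axis), with 95% intervals from limma; blue points passed an adjusted p of 0.05, grey points did not, open diamonds are the values with samples scaled to equal totals, and dotted lines mark a change of 1.5-fold in either direction. Mettl3 lies at −1.92, the blue points of the partners and Virma lie between 0.18 and 0.46, and every diamond lies to the right of its point.

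Mettl16, the writer that acts alone on structured RNAs such as the Mat2a hairpins shown above, was the member with the second largest rise. The WT values were 1407, 1357 and 1438 normalized counts, and the cKO values were 1783, 1964 and 1898. Every cKO sample was higher than every WT sample. The mean increased from 1401 ± 40.4 to 1882 ± 91.3 (SD, n = 3), a log2 fold change of 0.42 (SE 0.0554), with a limma adjusted p of 8.14e-07. A log2 fold change at least this high was found for 9.23% of all genes. Its target Mat2a had 2439, 2335 and 2275 normalized counts in WT and 2737, 2839 and 2956 in cKO. Mat2a was thus higher in every cKO sample, with a log2 fold change of 0.28 (SE 0.0473) and a limma adjusted p of 4.06e-05. Methylation of the 6 Mat2a sites was not measured in these samples, and a link between the 2 rises was not tested.

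The erasers did not pass the test in either direction. Fto, which demethylates internal and cap-adjacent adenosines, had 1744, 1742 and 1730 normalized counts in WT and 1705, 1794 and 1710 in cKO. The cKO values lay on both sides of the WT values, the log2 fold change was −0.0023 (SE 0.0517) and the limma adjusted p was 0.979. The 95% interval of the change ran from −7.25% to 7.48%. Alkbh5, a nuclear demethylase of internal m6A, had 15696, 16426 and 16142 normalized counts in WT and 16317, 16473 and 16271 in cKO. The groups overlapped, the log2 fold change was 0.02 (SE 0.0309) and the limma adjusted p was 0.594, with a 95% interval of the change from −2.72% to 6.25%. Within samples the ratio of Alkbh5 to Fto per kilobase of exon was 20.1 ± 0.489 in WT and 20.5 ± 0.455 in cKO (SD, n = 3), and the exact permutation p of this ratio was 0.5. With the longest transcript as the length, the mean ratio was 7.60 ± 0.185 and 7.74 ± 0.172 (SD, n = 3).

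For all 9 partners the 95% interval of the fold change stayed within 1.5-fold in both directions. The bound nearest to that limit was that of Rbm15b, an increase of 46.9%, followed by Mettl16 with 45.3%. Under scaling to equal totals the upper bounds of both passed the limit, at 51.8% and 50.2%. Without cKO sample 1 that of Mettl16 was 50.8%, and without cKO sample 3 that of Rbm15b was 51.5%.

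Transcript levels of different genes were compared per kilobase of exon. In WT, Alkbh5 was the most abundant member with 2687 ± 61.5 normalized counts per kilobase, followed by Rbm15 with 1823 ± 20.1 (SD, n = 3) and Zc3h13 with 1163 to 1184. Wtap with 945 ± 27.9 and Virma with 944 ± 32.5 had overlapping ranges, as did Cbll1 with 338 ± 17.4 and Rbm15b with 316 ± 8.34. Below them came Mettl3 with 246 ± 11.0, Mettl14 with 151 ± 6.19, Fto with 133 ± 0.559 and Mettl16 with 101 ± 2.93 normalized counts per kilobase, each clear of its neighbours on this length. Among all genes with an annotated length, these WT levels ran from the 35.6th percentile for Mettl16 to the 91.9th for Alkbh5. In cKO, Mettl3 dropped to 65.7 ± 12.2 normalized counts per kilobase of exon, the lowest of the 11 genes on this length. Mettl16 with 136 ± 6.61 and Fto with 133 ± 3.83 overlapped in cKO, while in WT Mettl16 lay below Fto in every sample. The order of upper and lower genes depended on the length. With the longest transcript as the length, Wtap had 1853 ± 54.7 in WT and 2101 ± 27.8 in cKO (SD, n = 3). It then stood above Zc3h13 with 1196 ± 12.2 and 1215 ± 38.0 (SD, n = 3). Virma had 1026 ± 35.3 and 1222 ± 12.7 (SD, n = 3) and no longer overlapped Wtap in WT. Per kilobase of the longest transcript, Mettl3 with 579 ± 25.9 and Fto with 369 ± 1.55 stood above Cbll1 with 343 ± 17.7 and Rbm15b with 316 ± 8.34 in WT (SD, n = 3). On the same length, Mettl3 in cKO with 155 ± 28.7 was not the lowest, and its range overlapped those of Mettl14 with 182 ± 8.80 and Mettl16 with 150 ± 7.25 (SD, n = 3). Fto lay above Mettl16 in every sample of both genotypes, and Alkbh5 and Rbm15 remained the highest.

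**Figure D3:**
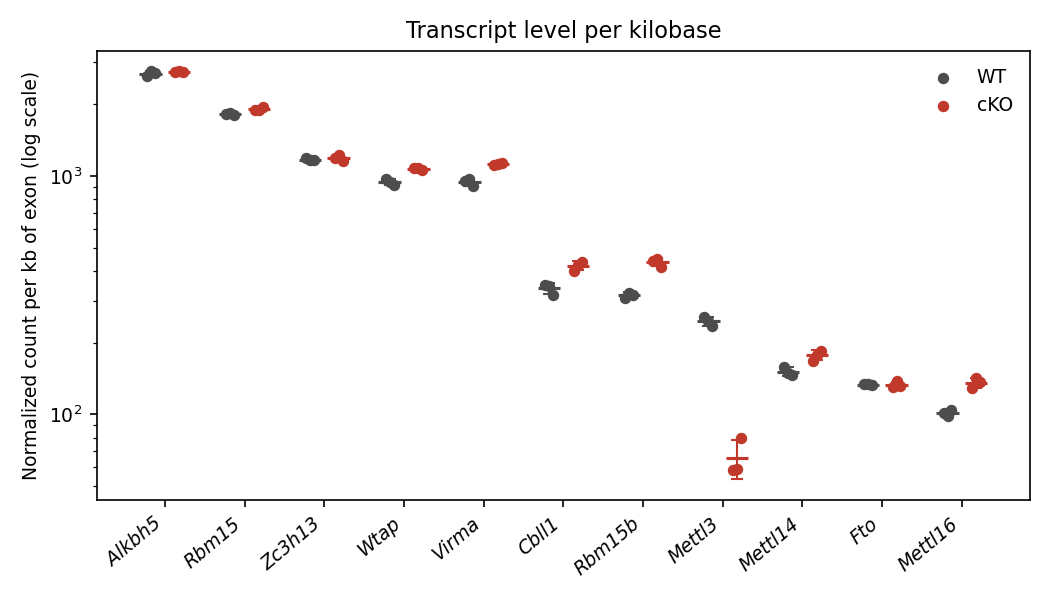
Normalized count per kilobase of exon on a log scale (y axis) for the 10 members and Virma (x axis, ordered by WT mean), with 1 point per sample, WT in grey and cKO in red; horizontal lines are means and bars are SD (n = 3). The genes span from 101 normalized counts per kilobase for Mettl16 to 2687 for Alkbh5 in WT, and Mettl3 at 65.7 is the lowest in cKO on this length, though not per kilobase of the longest transcript.

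The sense-strand letters GGACT, a common form of the sequence that the METTL3 complex methylates, were counted in the longest annotated transcript of each member as a feature that the choice of genes did not use. The density ran from 0.425 per kilobase of that transcript in Fto to 1.88 in Wtap, where the median of 11792 listed protein-coding genes was 1.04. Wtap, Mettl3 with 1.85 and Alkbh5 with 1.75 lay above the upper quartile of 1.49, and Fto alone lay below the lower quartile of 0.639. Rbm15b held 0.922 and Mettl16 1.11 such matches per kilobase, both within the middle range. These counts describe the letters of 1 transcript per gene, which for Mettl3 spans 2159 of 5076 exon bases, and say nothing of whether a site was methylated.

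Other genes of adenosine methylation were taken from a list of 29, of which 28 were measured. Of these 6 rose and 7 fell, near the 17.8% and 18.8% of all genes that did so. Their median log2 fold change was −0.05. Mettl4, a methyltransferase for adenosine in a spliceosomal RNA, rose with a log2 fold change of 0.40 (SE 0.110), from 308 ± 27.2 to 406 ± 17.1 normalized counts (SD, n = 3; limma adjusted p 0.00517). Mettl5, which methylates ribosomal RNA, fell from 550 ± 49.9 to 446 ± 38.4 normalized counts (SD, n = 3; limma adjusted p 0.0171). Without WT sample 2 or without cKO sample 3 this last call was lost, with adjusted p of 0.108 and 0.103 by limma, where all alternatives ran from 0.0122 to 0.108. The remaining genes for adenosine methyltransferases and their cofactor did not pass, and of the S-adenosylmethionine cycle only Mat2a, described above, passed among 3 genes.

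Among 7 other genes of the ALKBH family 3 rose and 2 fell, where 17.8% of all genes rose and 18.8% fell. Alkbh4, a demethylase family member linked to actin, rose by 0.27 on the log2 scale (limma adjusted p 0.00319), Alkbh8, which modifies transfer RNA, by 0.20 (0.0225) and Alkbh1, a demethylase of transfer RNA, by 0.17 (0.0253). Alkbh6 fell by 0.27 on the log2 scale with a limma adjusted p of 0.000657. Alkbh3, which repairs alkylated nucleic acids, fell by 0.17 with an adjusted p of 0.0405 by limma. The calls of Alkbh1, Alkbh3 and Alkbh8 lay near the threshold. With samples left out in turn their log2 fold changes ranged from 0.13 to 0.21, from −0.19 to −0.14 and from 0.18 to 0.23. The call of Alkbh1 was lost without WT sample 1 or 2 or cKO sample 2 or 3 (adjusted p up to 0.107), and that of Alkbh3 without WT sample 2 or 3 or cKO sample 1 or 3 (up to 0.147) and under scaling to equal totals (0.144). That of Alkbh8 was lost without WT sample 1 or cKO sample 1 or 2 (up to 0.0847).

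The readers, proteins that bind m6A or RNA opened by it, gave no rise and 4 falls among 12 genes measured. Of all genes, 17.8% rose and 18.8% fell. Under scaling to equal totals 4 readers rose and 3 fell, while over all genes 3487 rose and 2016 fell. Rbmx fell from 4145 ± 155 to 3347 ± 248 normalized counts, or −0.31 on the log2 scale (SD, n = 3; limma adjusted p 9.84e-06). Hnrnpc, which like Rbmx binds RNA that m6A has made accessible, fell from 30601 ± 1197 to 25626 ± 654 normalized counts (SD, n = 3; log2 fold change −0.26, limma adjusted p 5.46e-07). Ythdf3, a cytoplasmic reader, fell from 11735 ± 235 to 10145 ± 296 normalized counts (SD, n = 3; log2 fold change −0.21, limma adjusted p 1.57e-05). The remaining fall, that of the nuclear reader Ythdc1, was named after its values were seen and differed by −0.10 on the log2 scale (limma adjusted p 0.0153). It did not pass when samples were scaled to equal totals (adjusted p 0.201), under the GC content and length correction (0.130), or without WT sample 3, cKO sample 1 or cKO sample 3 (0.0633 to 0.0889), and its lowest value over the alternatives was 0.00553.
The counts for the whole list also moved with these choices, with 10 rises under scaling to equal totals and 4 falls without cKO sample 3. Over all genes the rises moved from 2576 to 3487 under that scaling, and the falls from 2731 to 2330 without cKO sample 3.

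**Figure D4:**
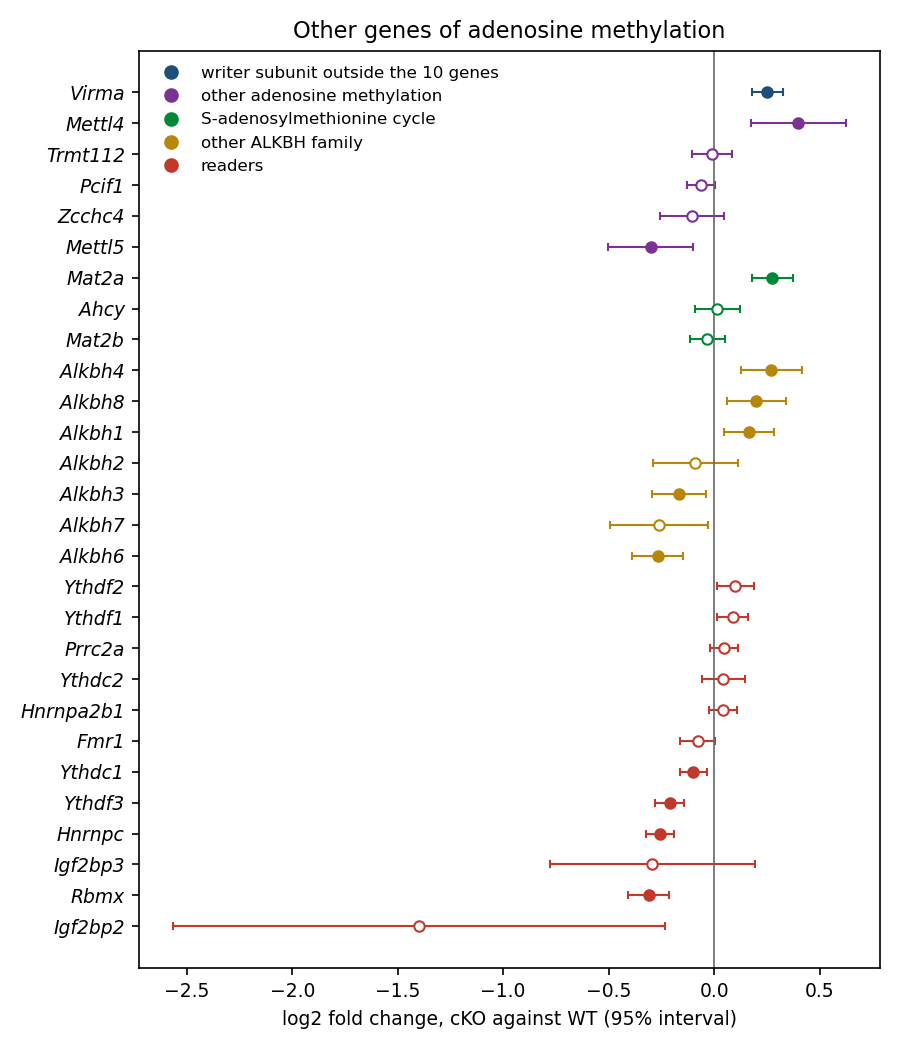
Log2 fold change of cKO against WT (x axis) with 95% intervals from limma for the 28 other genes of adenosine methylation (y axis), coloured by group; filled points passed an adjusted p of 0.05 and open points did not. Filled points lie on both sides of 0, from −0.31 for Rbmx to 0.40 for Mettl4, and Igf2bp2, which had at most 33.3 normalized counts in any sample, has the widest interval.

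Ncr1, the gene at whose locus Cre was placed, had 22707, 22328 and 22147 normalized counts in WT and 16938, 17138 and 16678 in cKO. All cKO samples were lower, by 24.5% in the mean, with a log2 fold change of −0.40 (SE 0.0300) and a limma adjusted p of 3.56e-11. The part of the Cre allele in this fall cannot be told apart from that of Mettl3 loss.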

How the data were processed

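mRNA-seq of splenic NK cells from 3 WT and 3 cKO samples was analysed, with genotypes taken from the sample labels. Per the submitters' processing notes the tools were HISAT2 2.0.5, featureCounts 1.5.0-p3 and DESeq2 1.16.1 on GRCm38, and the study's methods name other versions of these tools. Each deposited value is a signal that the authors obtained by dividing a gene's read count by the size factor of its sample. Deposited values were whole multiples of 1 step per sample in 100% of cases (tolerance 0.01 of a read), from which the reads were recovered. The table also holds 6 columns of the authors' own comparison, which were not used. No column was left without a sample.

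On the scale log2(value + 1), every gene reached the minimum value of 1 in 3 samples or more, and limma 3.58.1 in R 4.3.3 with a variance trend compared the genotypes over all 14490 genes, two-sided, with Benjamini-Hochberg adjustment. Intervals are at the 95% level. Ratios within samples were compared by the exact permutation test over 20 assignments, whose smallest p is 0.1. Positions and lengths came from the GENCODE M21 annotation of GRCm38, which may not be the annotation that the authors counted on. It matched 97.3% of the gene names. The steps were tested on simulated data. Between 292 and 18127 reads per member and sample give a relative counting error of 5.85% to 0.743% (1 SD), to which variation between samples adds.

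The members and gene lists were chosen with earlier results of these data known. All 10 members, up to 6 rising and 6 falling genes of the list of other genes by log2 fold change, Virma and Ncr1 were to be named. The alternatives were a pseudocount of 0.1, 2 other filters on low values, scaling to equal totals, limma-voom on recovered reads, a replicate block, a GC content and length correction, each sample left out in turn, and a 1.5-fold limit or adjusted p in the study's rule.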

Additional observations from a re-analysis of the deposited data

How the results depend on the processing

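All 6 members that passed the test did so with the same direction under each of the 7 other settings and each of the 6 fits that left out a sample. Of the filters on low values, that with no minimum kept every gene. Its fit is the main fit, so its agreement was fixed in advance. Rbm15 also passed under equal totals and under the GC content and length correction, with the log2 fold changes 0.12 and 0.09. The log2 fold change of Fto changed sign to 0.0474 under equal totals and, with each sample left out in turn, ranged from −0.026 without cKO sample 2 to 0.0106 without cKO sample 1, positive also without cKO sample 3 at 0.00852; no such value passed the test. Under equal totals 2 partners had intervals that passed 1.5-fold and 10 genes of the wider list rose. Over all genes 3487 rose under this scaling, in place of 2576, and it moved the median of all genes by 0.05 on the log2 scale. When each sample was left out in turn, the number of partners with intervals that passed 1.5-fold ranged from 0 to 1. In the same fits the number of falls in the wider list ranged from 4 to 8, and over all genes from 2309 to 2587. With the longest transcript as the length, the summed levels per kilobase were 735 in WT and 337 in cKO for the catalytic pair, and 7002 and 7780 for the regulatory subunits. Same-numbered samples correlated at −0.04 to 0.06 in their deviations from the group means, and differently numbered samples at −0.07 to 0.04. Correlations of so few samples cannot exclude that the replicate numbers pair them. A replicate block gave 5543 calls over all genes in place of 5307, with 5 members higher and 1 lower as without it. TMM scaling, the quasi-likelihood test and a second count test on recovered reads were not run, and limma-voom was the alternative fitted on those reads. Gene counts cannot show transcript isoforms or protein, and with 3 samples per genotype the spread of single genes is poorly known.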
